A study of Mus musculus with 6 samples.

Results

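Described here are 9 genes of the extrinsic, receptor-started route to apoptosis, in 4T1 cells, a mouse mammary carcinoma line, after 4 h with the kinase inhibitor KIRA6. They were taken by symbol from a table of 56691 genes, and all 9 were found, once each. They are the death receptor genes Fas, Tnfrsf10b and Tnfrsf1a, the related receptor gene Tnfrsf12a, the ligand gene Tnfsf10, the adaptor gene Fadd, the caspase gene Casp8, its inhibitor Cflar and the kinase gene Ripk1. One group of 3 libraries came from 4T1 cells given fresh medium with vehicle and the other group of 3 from 4T1 cells given fresh medium with KIRA6 at 1 µmol/L. Both groups were grown overnight in RPMI 1640 beforehand, are of the one line, and carry no stated genetic change. KIRA6 targets the kinase of IRE1α, which senses misfolded protein in the endoplasmic reticulum, and through it dampens the RNase of the same protein. The series as a whole concerns this compound in the context of myeloid suppressor cells and therapy against PD-1.

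Death receptors are surface proteins of the TNF receptor family with a cytoplasmic death domain. When Fas ligand or TRAIL (the product of Tnfsf10) binds, Fas or the TRAIL receptor recruits the adaptor FADD, which gathers caspase-8 into an activating complex. The caspase-8 homologue cFLIP, made from Cflar, enters the same complex and lacks protease activity. TNF receptor 1 first assembles RIPK1, TRADD, TRAF2 and the cIAP ubiquitin ligases, which favours NF-κB signalling and survival, and can pass to caspase-8 or to necroptosis afterwards. In human cells, the transcription factor CHOP has been reported to raise the TRAIL receptor transcript and IRE1α to cut it.

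The members whose groups stood apart in these libraries were Fas, Tnfsf10 and Tnfrsf12a, and the 250 bases before their annotated starts are shown for that reason. The sequences are from RefSeq on GRCm38.p6, an older build than the GRCm39 of the expression table, and are read 5′ to 3′ on the strand of the gene. RefSeq entries were found for 8 of the 9 genes (9 entries), all but Tnfrsf10b. Capitals mark letters matched on either strand by TGANTCA (the AP-1 motif), GGGCGG (the GC box of Sp1) or TTCNNNGAA (the STAT motif), and no matches of different motifs overlapped.
Fas, chr19:34290409-34290658, plus strand: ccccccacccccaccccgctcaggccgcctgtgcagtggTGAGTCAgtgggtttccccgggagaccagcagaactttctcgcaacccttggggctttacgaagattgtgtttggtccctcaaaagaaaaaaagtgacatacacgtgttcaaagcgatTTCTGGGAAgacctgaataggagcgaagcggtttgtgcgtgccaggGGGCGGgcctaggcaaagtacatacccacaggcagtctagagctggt
Tnfsf10, chr3:27316827-27317076, plus strand: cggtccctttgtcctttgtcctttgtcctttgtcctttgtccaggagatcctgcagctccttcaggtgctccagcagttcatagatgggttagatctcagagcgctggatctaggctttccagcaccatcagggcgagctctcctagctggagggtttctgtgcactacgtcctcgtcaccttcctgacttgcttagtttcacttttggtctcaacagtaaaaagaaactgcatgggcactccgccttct
Tnfrsf12a, chr17:23677450-23677699, minus strand: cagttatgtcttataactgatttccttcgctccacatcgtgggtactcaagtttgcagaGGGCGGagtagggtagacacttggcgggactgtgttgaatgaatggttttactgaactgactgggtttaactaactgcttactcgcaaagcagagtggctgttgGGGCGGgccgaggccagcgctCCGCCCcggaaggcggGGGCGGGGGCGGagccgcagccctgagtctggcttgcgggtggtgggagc

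The Fas window held 1 match each of the AP-1 motif (bases 40 to 46, counted from the first base shown), the STAT motif (bases 158 to 166) and the GC box (bases 204 to 209). The Tnfrsf12a window held 5 matches of the GC box, the last ending 38 bases before the start. Such matches were not particular to genes that moved: the STAT motif was also found in the windows of Tnfrsf1a and Ripk1 and the GC box in those of Fadd and Ripk1, none of which was called. The Tnfsf10 window held none of these, nor the IRF motif, TGTTTAC (FOXO) or TGATGCAAT (CHOP), which were also not in the Fas and Tnfrsf12a windows. Among 32851 windows of the same length, 6.75% held the AP-1 motif, 32.7% the GC box, 7.02% the STAT motif, 2.98% the IRF motif, 3.17% the FOXO motif and 0.167% the CHOP motif. A match describes letters only, and a missing match says only that those letters were not in this window.

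Levels are FPKM, fragments per kilobase of exonic length and scaled to the fragments assigned to genes in each library, as the authors deposited them. The libraries held an estimated 16495400 to 21345800 assigned fragments each. The first 2 principal components held 56% and 35.1% of the variance. Vehicle replicate 3 and KIRA6 replicate 1 lay far from their own groups on both. On the first they were at −10.2 and 11. The other Vehicle libraries were at −47.7 and −43.8 there, and the other KIRA6 libraries at 42 and 48.6. On the second, Vehicle replicate 3 was at −55.9 and KIRA6 replicate 1 at 44.5. Values without both of these libraries are therefore given below. Mitochondrially encoded genes held 1.75% to 2.03% of fragments in Vehicle and 2.66% to 3.25% in KIRA6, and whether this bears on the results was not tested. All 8 epithelial markers examined (among them Epcam, Krt8 and Krt18) were expressed, and their summed level ran from 1385 to 1517 FPKM in Vehicle and from 1647 to 1746 FPKM in KIRA6. Of these, 3 rose: Krt14, from 22.9 ± 0.721 to 162.1 ± 6.1 FPKM (SD, n = 3 each, limma adjusted p = 0.000143), Epcam and Esrp1. Their part in the results was not tested. Of 7 leukocyte markers, 4 were at 0 in every library (Cd3e, Adgre1 and Nkg7 among them) and Ptprc never passed 0.01 FPKM. The summed leukocyte level was 0.08 to 0.39 FPKM in Vehicle and 0.46 to 0.76 FPKM in KIRA6, nearly all of it Lyz2. The 4 endothelial markers summed to at most 0.06 FPKM. Of 4 fibroblast markers, Lum was at 0 throughout and Dcn and Pdgfrb never passed 0.02 FPKM, while Pdgfra rose from 0.533 ± 0.163 to 2.75 ± 0.945 FPKM (SD, n = 3 each, limma adjusted p = 0.00611).

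Log2(FPKM + 0.5) was compared between the groups with limma over the 11778 genes whose mean level reached 0.5 FPKM, and a Benjamini-Hochberg adjusted p below 0.05 over all of them was called. A fold change on this scale understates the change of low genes. Of all tested genes, 23.6% were called, 15.6% higher and 7.98% lower with KIRA6, and the 2 groups did not overlap for 41.8% (27.7% higher and 14.1% lower). Over all tested genes the median log2 fold change was 0.16, and it was −0.0084 when the libraries were scaled by median ratios. That scaling called 1296 genes higher and 1438 lower, quantile normalization 1132 and 1182, and the values as deposited 1843 and 940. Whether the libraries of a group are separate cultures is not stated in the labels. The p-values therefore weigh differences only against the spread among these libraries, which may be technical. In bulk RNA, fewer cells with a transcript and less of it per cell cannot be told apart.

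Of the 9 genes, 8 were tested, and 1 rose (Fas) and 1 fell (Tnfrsf12a). That is 25.0% of the 8, close to the 23.6% of all tested genes, so the number of calls does not set these genes apart. The 2 groups did not overlap for the same 2 of the 8 genes, a smaller share than the 41.8% of all tested genes. The median log2 fold change of the 8 was 0.06, against 0.16 for all tested genes. Tnfsf10 lay under the threshold for testing and is described by its fragments. The plot of levels by library shows all 9.

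**Figure D1:**
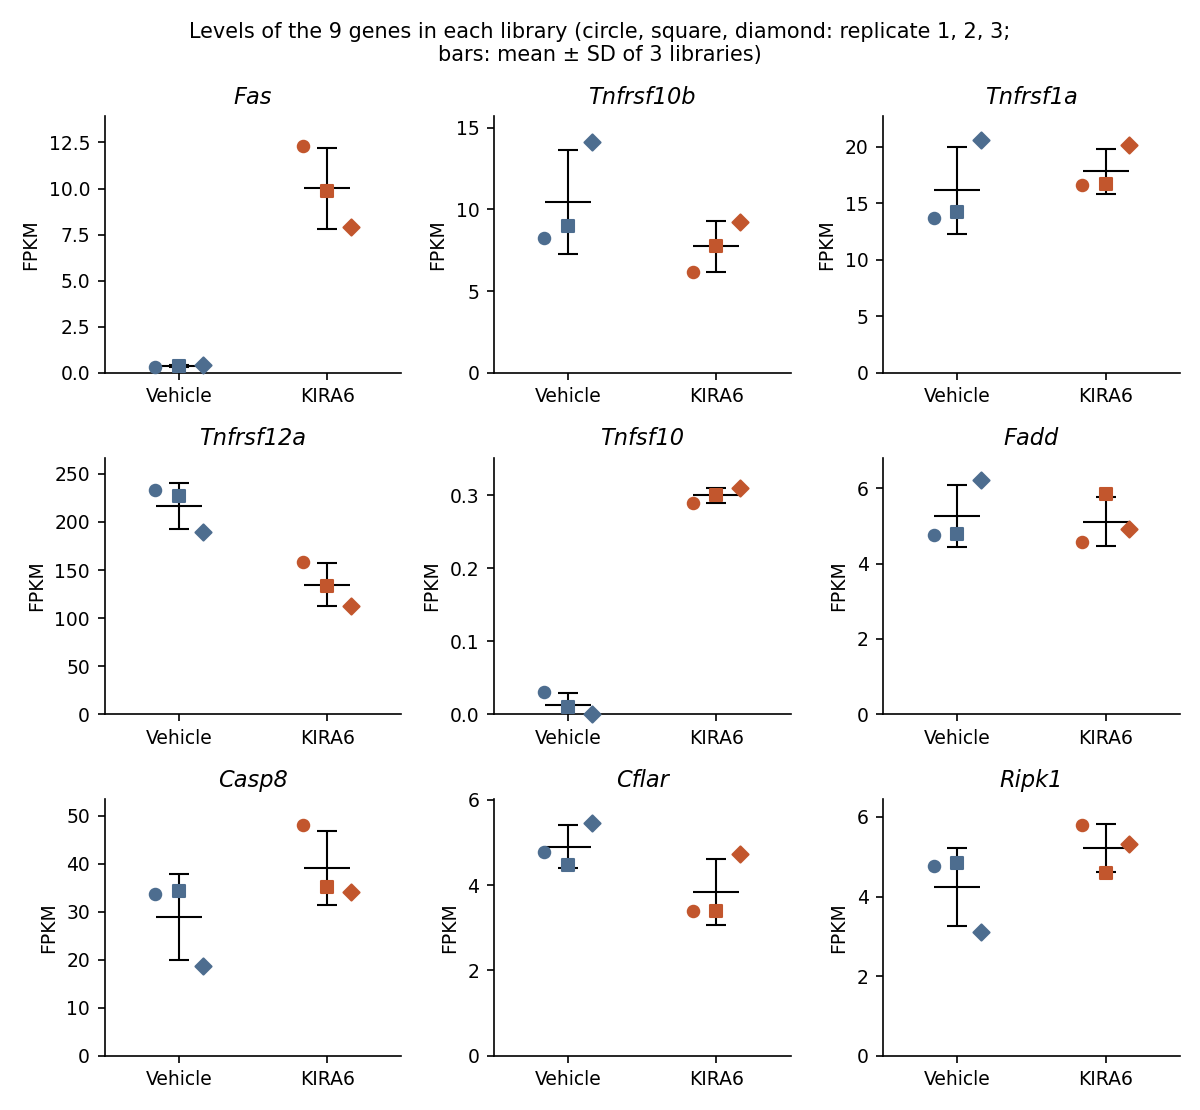
Level in FPKM (vertical axis, from 0) of each of the 9 genes in the 3 Vehicle (blue) and 3 KIRA6 (orange) libraries, with the mean and SD of each group in black. Fas is at 0.32 to 0.44 FPKM in Vehicle and 7.89 to 12.29 FPKM in KIRA6, Tnfrsf12a is lower in every KIRA6 library than in any Vehicle library, and Vehicle replicate 3 (diamond) stands away from the other 2 Vehicle libraries for Tnfrsf10b, Tnfrsf1a, Casp8 and Ripk1.

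Fas, the receptor for Fas ligand (ENSMUSG00000024778, chromosome 19, 34268066 to 34305172 on GRCm39, plus strand), had 0.32, 0.35 and 0.44 FPKM in Vehicle replicates 1, 2 and 3. In KIRA6 replicates 1, 2 and 3 it had 12.29, 9.88 and 7.89 FPKM. Every KIRA6 library was far above every Vehicle library, and the highest was KIRA6 replicate 1. The means were 0.37 ± 0.0624 and 10.02 ± 2.2 FPKM (SD, n = 3 each), a ratio of 27.1. Behind these values stood an estimated 12, 12 and 17 fragments in Vehicle and 541, 371 and 323 in KIRA6, so the Vehicle level, and with it the size of the ratio, is known less well than the KIRA6 level. The log2 fold change was 3.58 ± 0.19 (SE, 95% interval 3.12 to 4.03, limma adjusted p = 0.000425), the third highest of the 11778 tested genes. Fas went from the 2.16th percentile of tested genes by mean level in Vehicle to the 62.6th in KIRA6. Its Vehicle mean was under the 0.5 FPKM threshold, so it was tested only through its KIRA6 level. Any tested gene this low in Vehicle has to be higher in KIRA6, so this climb is in part set by the filter.

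The call for Fas held in all 18 alternatives, with log2 fold changes from 2.99 (pseudocount 1) to 4.69 (limma-voom on estimated fragments). Without Vehicle replicate 3 and KIRA6 replicate 1 it was 3.48. An unnamed gene model on the same strand overlaps the Fas locus and averaged 0.1 FPKM. The tested genes whose 6 values, centred on the Vehicle mean on the log2 scale, lay nearest to those of Fas were Cpt1a, Artn and Ccng2. Their root-mean-square differences from Fas over the 6 libraries were 0.34, 0.48 and 0.50. Their log2 fold changes were 3.33, 3.06 and 3.02, each lower than that of Fas. Cpt1a encodes the enzyme that commits long-chain fatty acids to mitochondrial oxidation, Artn a neurotrophic ligand of the GDNF family and Ccng2 an atypical cyclin.

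Tnfrsf10b encodes the one mouse TRAIL receptor with a death domain, also called DR5 (ENSMUSG00000022074, chromosome 14, 70004921 to 70021860, plus strand). It had 8.27, 8.97 and 14.14 FPKM in Vehicle replicates 1, 2 and 3 and 6.18, 7.76 and 9.26 FPKM in the KIRA6 replicates. The groups overlapped, and Vehicle replicate 3 alone was well above the other 5 libraries. Tnfrsf10b had a log2 fold change of −0.39 ± 0.25 (SE, 95% interval −0.97 to 0.19, limma adjusted p = 0.294). Without Vehicle replicate 3 it was −0.16, and when KIRA6 replicate 1 was left out too it was −0.02 (limma adjusted p = 0.904). The upper bound of 0.19 is far below the change of Fas. Its nearest profiles were Pcdhgc3, Kri1 and Tiam1 (root-mean-square differences 0.032, 0.042 and 0.042 over 6 libraries), none of which was called.

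The transcripts of the 2 factors reported to act on the TRAIL receptor transcript did not move alike. These are RNA levels, and the activity of the CHOP and IRE1α proteins was not measured. Ddit3, which encodes CHOP, had 4.01, 4.25 and 2.95 FPKM in Vehicle and 11.59, 10.48 and 7.44 FPKM in KIRA6, and rose with a log2 fold change of 1.28 ± 0.22 (SE, limma adjusted p = 0.00811). Ern1, which encodes IRE1α, had 2.39, 2.4 and 6.33 FPKM in Vehicle and 1.64, 2.97 and 3.29 FPKM in KIRA6. Its log2 fold change was −0.34 (95% interval −1.28 to 0.60, limma adjusted p = 0.582), and the sign turned when Vehicle replicate 3 was left out. Among transcripts of TRAIL decoys, Tnfrsf22 and Tnfrsf23 had means of 17.8 ± 12.8 and 7.01 ± 6.45 FPKM in Vehicle and 8.09 ± 3.47 and 4.71 ± 2.65 FPKM in KIRA6 (SD, n = 3 each). The wide Vehicle spread came from Vehicle replicate 3, with 32.62 and 14.46 FPKM. Neither was called (limma adjusted p = 0.229 and 0.74). Neighbouring genes of this family have similar sequences that can share reads, and whether they did so here was not tested, so both levels are uncertain.

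Tnfrsf1a encodes TNF receptor 1 (ENSMUSG00000030341, chromosome 6, 125326325 to 125339447, plus strand). Its Vehicle levels were 13.65, 14.22 and 20.58 FPKM and its KIRA6 levels 16.6, 16.7 and 20.11 FPKM, for replicates 1, 2 and 3. The groups overlapped, since Vehicle replicate 3 was the highest of the 6. The log2 fold change was 0.16 ± 0.19 (SE, 95% interval −0.30 to 0.61, limma adjusted p = 0.609), equal to the median of all tested genes, and it turned to −0.03 with median-ratio scaling. Without Vehicle replicate 3 and KIRA6 replicate 1 it was 0.38 and was called (limma adjusted p = 0.0354). Tnf itself, the ligand, was at 0 in the Vehicle libraries and at 0.03, 0.03 and 0.09 FPKM in the KIRA6 libraries.

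Tnfrsf12a encodes Fn14, the receptor for TWEAK, which has no death domain and signals through TRAF proteins (ENSMUSG00000023905, chromosome 17, 23894419 to 23896442, minus strand). It was the most abundant of the 9 genes, in the 98.0th percentile of tested genes by its Vehicle mean and the 96.9th by its KIRA6 mean. Vehicle replicates 1, 2 and 3 had 233.71, 227.26 and 189.62 FPKM and KIRA6 replicates 1, 2 and 3 had 158.22, 133.32 and 113.13 FPKM. The groups did not overlap, with Vehicle replicate 3 and KIRA6 replicate 1 closest to each other. The means were 216.9 ± 23.8 and 134.9 ± 22.6 FPKM (SD, n = 3 each), so Vehicle was 1.61 times KIRA6.

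The log2 fold change of Tnfrsf12a was −0.69 ± 0.18 (SE, 95% interval −1.11 to −0.27, limma adjusted p = 0.0316). It kept its sign in all 18 alternatives, from −0.91 to −0.57. The call ended with any of 4 single libraries left out: replicate 1 of Vehicle (limma adjusted p = 0.106), replicate 2 of Vehicle (0.122), and replicates 2 (0.116) and 3 (0.0896) of KIRA6. It also ended with no filter on low genes (limma adjusted p = 0.0567). The ligand gene Tnfsf12, for TWEAK, was under the testing threshold. The nearest profiles were those of Jagn1, Wfdc2 and Bin1 (root-mean-square differences 0.022, 0.030 and 0.034 over 6 libraries), all called lower with log2 fold changes of −0.68, −0.72 and −0.70.

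**Figure D2:**
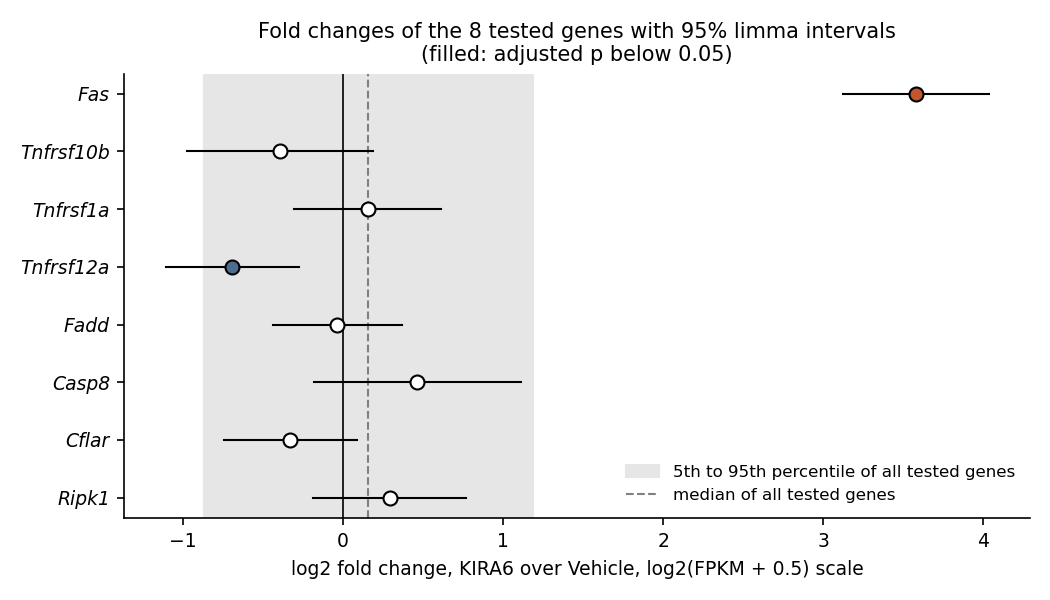
Log2 fold change of KIRA6 over Vehicle (horizontal axis) for the 8 tested genes, with 95% limma intervals, n = 3 libraries a group. Filled points passed an adjusted p below 0.05, and the grey band spans the 5th to 95th percentile of all tested genes (−0.87 to 1.19). Fas alone lies outside the band, and the intervals of the 6 open points include 0.

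Fas made up little of the death-domain receptor transcripts in Vehicle and a larger part in KIRA6. Of the summed FPKM of Fas, Tnfrsf10b and Tnfrsf1a, Fas held 1.44%, 1.49% and 1.25% in Vehicle replicates 1, 2 and 3. In KIRA6 replicates 1, 2 and 3 it held 35.0%, 28.8% and 21.2%. The sum itself was 22.24, 23.54 and 35.16 FPKM in Vehicle and 35.07, 34.34 and 37.26 FPKM in KIRA6, so Vehicle replicate 3 lay within the KIRA6 range of the sum while Fas held little of it. Among these 3 genes, the order of means in Vehicle was Tnfrsf1a (16.2 ± 3.85 FPKM), Tnfrsf10b (10.5 ± 3.21 FPKM) and Fas. In KIRA6 it was Tnfrsf1a (17.8 ± 2 FPKM), Fas (10.02 ± 2.2 FPKM) and Tnfrsf10b (7.73 ± 1.54 FPKM), with the last 2 overlapping in their values. FPKM divides by the union of a gene's exons, which differs from the length of the transcripts present, so orders between genes are approximate.

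Another receptor with a death domain moved the other way. Of 5 further death-domain receptor genes only Tnfrsf21, which encodes DR6, was high enough to test. It had 10.21, 11.28 and 13.55 FPKM in Vehicle and 2.47, 2.70 and 2.83 FPKM in KIRA6, without overlap, and fell with a log2 fold change of −1.94 ± 0.15 (SE, limma adjusted p = 0.000856). That call held in all 18 alternatives. Of 19 receptor genes without a death domain, TRAIL decoys included, 8 were tested, 2 rose and 0 fell (25.0% called, against 23.6% of all tested genes). Tnfrsf19, an orphan receptor also called TROY, rose from 0.34 ± 0.1 to 1.80 ± 0.289 FPKM (SD, n = 3 each). Its Vehicle mean was under the 0.5 FPKM threshold, so it was tested only through its KIRA6 level and had to be higher there. Tnfrsf1b, TNF receptor 2, rose from 5.74 ± 1.28 to 9.89 ± 0.92 FPKM (limma adjusted p = 0.0291), but this call was made in 1 of the 6 fits that left out a library (limma adjusted p up to 0.105) and not with median-ratio scaling (0.0682).

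Tnfsf10, the TRAIL gene (ENSMUSG00000039304, chromosome 3, 27371177 to 27396576, plus strand), was scarce in both groups. Its levels were 0.03, 0.01 and 0 FPKM in Vehicle replicates 1, 2 and 3 and 0.29, 0.3 and 0.31 FPKM in the KIRA6 replicates. The groups did not overlap, and the 3 KIRA6 values were close together. In estimated fragments these were 3, 1 and 0 against 33, 29 and 32, or 4 against 94 in all. Per fragment of depth the ratio was 21.1, with an exact 95% interval of 7.96 to 79.0 that covers counting error only. With no filter on low genes, limma called Tnfsf10 higher (log2 fold change 0.64, adjusted p = 0.0109). That fold change depends on the pseudocount, being 1.83 with 0.1 and 0.36 with 1.

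No transcript of Fas ligand was seen: Fasl was listed at 0 in all 6 libraries, and a count of 0 leaves room for an expected count of up to 3 fragments in each. Of 17 other ligand genes of the TNF family, Fasl and Tnf included, 2 were tested, 0 rose and 1 fell. Of all tested genes 23.6% were called (15.6% higher and 7.98% lower), and 2 genes are too few to compare with those shares. Tnfsf9, the 4-1BB ligand, fell from 5.15 ± 0.696 to 2.51 ± 0.751 FPKM (SD, n = 3 each, limma adjusted p = 0.0258). Leaving out replicate 1 or 2 of Vehicle or replicate 2 of KIRA6 ended that call (limma adjusted p up to 0.0907), as did testing with no filter on low genes.

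The 4 genes of the signalling complex were expressed in both groups, and none was called. Casp8, the initiator protease (ENSMUSG00000026029, chromosome 1, 58834533 to 58886662, plus strand), was the highest of them. It had 33.63, 34.42 and 18.67 FPKM in Vehicle replicates 1, 2 and 3 and 48.07, 35.22 and 34.2 FPKM in the KIRA6 replicates. Vehicle replicate 3 was low and KIRA6 replicate 1 high, and the other 4 libraries lay between 33.63 and 35.22 FPKM. The log2 fold change was 0.47 ± 0.27 (SE, 95% interval −0.18 to 1.12, limma adjusted p = 0.263), and without those 2 libraries it was 0.03 (limma adjusted p = 0.826).

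Cflar, for the inhibitor cFLIP (ENSMUSG00000026031, chromosome 1, 58750667 to 58798043, plus strand), is the neighbour of Casp8 on the same strand. It had 4.77, 4.47 and 5.45 FPKM in Vehicle and 3.38, 3.4 and 4.72 FPKM in KIRA6, for replicates 1, 2 and 3. KIRA6 replicates 1 and 2 were below all Vehicle libraries and KIRA6 replicate 3 was within their range. For Cflar the log2 fold change was −0.33 ± 0.18 (SE, 95% interval −0.74 to 0.09, limma adjusted p = 0.226). Quantile normalization took it to −0.57 with a call (limma adjusted p = 0.0472). The exonic length used for Cflar is 12669 bases, the longest of the 9, and gene-level values do not separate its long and short isoforms.

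The level of Casp8 over that of Cflar was 7.05, 7.7 and 3.43 in Vehicle replicates 1, 2 and 3 and 14.2, 10.4 and 7.25 in the KIRA6 replicates. The groups overlapped at KIRA6 replicate 3. As log2 of Cflar over Casp8 the means were −2.51 ± 0.64 and −3.35 ± 0.49 (SD, n = 3 each), a difference of −0.84 with a two-sided exact permutation p of 0.2. The smallest p that 3 against 3 libraries can give is 0.1. Without Vehicle replicate 3 and KIRA6 replicate 1 the difference was −0.23.

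**Figure D3:**
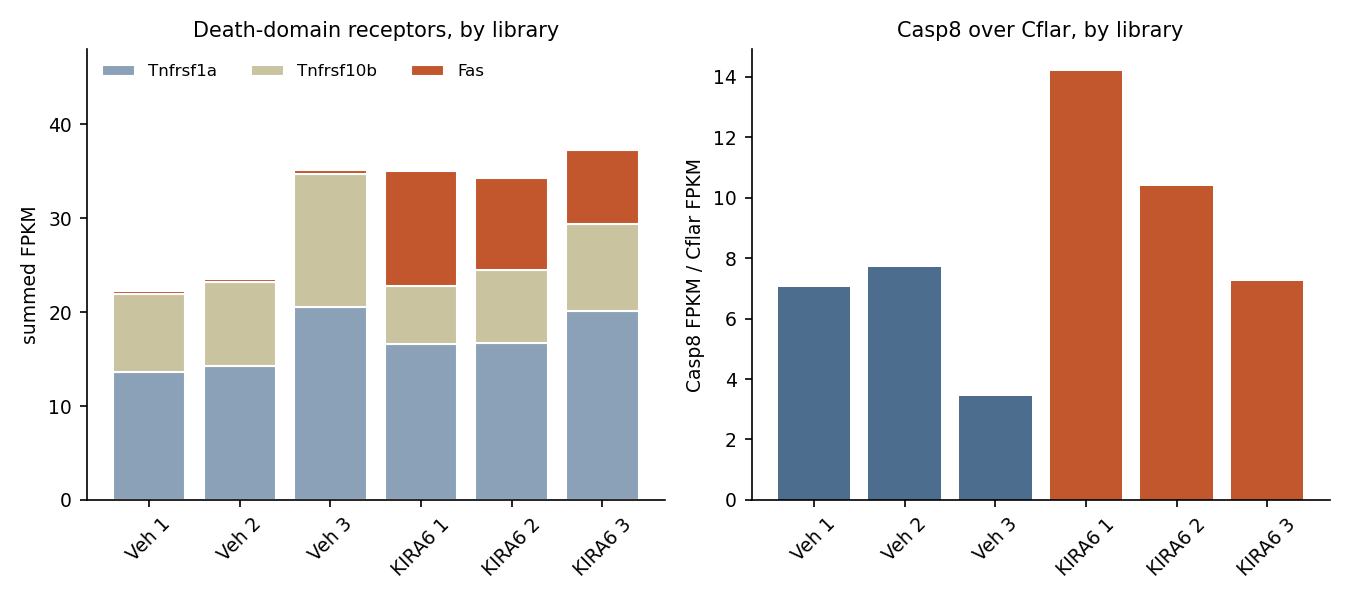
Left, summed FPKM of Fas, Tnfrsf10b and Tnfrsf1a in each library (stacked bars from 0). Right, Casp8 FPKM divided by Cflar FPKM in each library. Fas holds 1.25% to 1.49% of the Vehicle bars and 21.2% to 35.0% of the KIRA6 bars, while the Casp8 to Cflar ratio of KIRA6 replicate 3 (7.25) lies within the Vehicle range of 3.43 to 7.7.

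Fadd, for the adaptor that joins receptor and caspase (ENSMUSG00000031077, chromosome 7, 144131055 to 144136200, minus strand), was even across the groups. Vehicle replicates had 4.77, 4.8 and 6.22 FPKM and KIRA6 replicates 4.57, 5.85 and 4.93 FPKM. The groups overlapped throughout, with a log2 fold change of −0.03 ± 0.17 (SE, 95% interval −0.43 to 0.37, limma adjusted p = 0.911), whose sign turned in 4 alternatives. A transcript on the opposite strand, Faddos, shares 4195 bases of genomic span with it and was at 0.24 to 0.57 FPKM.

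Ripk1, for the kinase that decides between survival signalling and death at TNF receptor 1 (ENSMUSG00000021408, chromosome 13, 34186346 to 34221130, plus strand), had 4.76, 4.84 and 3.11 FPKM in Vehicle replicates 1, 2 and 3. It had 5.79, 4.59 and 5.31 FPKM in the KIRA6 replicates. The groups overlapped, and Vehicle replicate 3 was the lowest library. Ripk1 had a log2 fold change of 0.29 ± 0.20 (SE, 95% interval −0.18 to 0.77, limma adjusted p = 0.338), and 0.11 without Vehicle replicate 3. The first 432 bases of its span lie within Serpinb6a on the opposite strand, which was far higher, at 62.65 to 129.71 FPKM. The libraries kept strand, but the strand setting of the counting is not given in the sources used here, so Ripk1 is uncertain to that extent.

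The other genes that act at these receptors were read from the pathway lists, and are shown in the plot of pathway lists. Among 30 adaptor, ubiquitin and kinase regulators of the receptor complexes, all tested, 6 rose and 1 fell (23.3% called, against 23.6% of all tested genes), with a median log2 fold change of 0.26. The gene that fell was Tnfaip3, for A20, an enzyme that edits ubiquitin chains and restrains NF-κB, from 15.9 ± 1.52 to 6.40 ± 0.646 FPKM (SD, n = 3 each). Birc2, for the ubiquitin ligase cIAP1, rose from 2.58 ± 0.526 to 6.61 ± 0.546 FPKM, and Ikbkg, for the NEMO subunit of the IκB kinase, from 5.66 ± 0.97 to 12.6 ± 1.95 FPKM. On the log2 scale these 3 genes changed by −1.25, 1.22 and 1.09 (limma adjusted p = 0.00223, 0.00464 and 0.00806), and the 3 calls held in all 18 alternatives.

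The other 4 genes that rose were Traf1, Tradd, Cyld and Tnip1, with log2 fold changes of 0.62, 0.82, 0.64 and 0.76. Traf1 and Tradd encode adaptors, Cyld a deubiquitinase and Tnip1 a partner of A20. Each of these 4 calls ended in at least 4 of the 6 fits that left out 1 library, with limma adjusted p up to 0.0743, 0.0969, 0.111 and 0.153. Those of Tradd, Cyld and Tnip1 also ended with median-ratio scaling (0.0558, 0.0827 and 0.0999). Birc3, for cIAP2, had 1.83 ± 0.402 and 2.77 ± 0.553 FPKM and Traf2 5.86 ± 0.0473 and 7.29 ± 0.559 FPKM (SD, n = 3 each), and neither was called (limma adjusted p = 0.13 and 0.15). The list held 2 higher calls when replicate 1 or 2 of Vehicle or replicate 2 of KIRA6 was left out, and 3 when replicate 3 of KIRA6 was. It held 3 under median-ratio scaling, and 15 when the 2 libraries that lay apart were both left out.

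**Figure D4:**
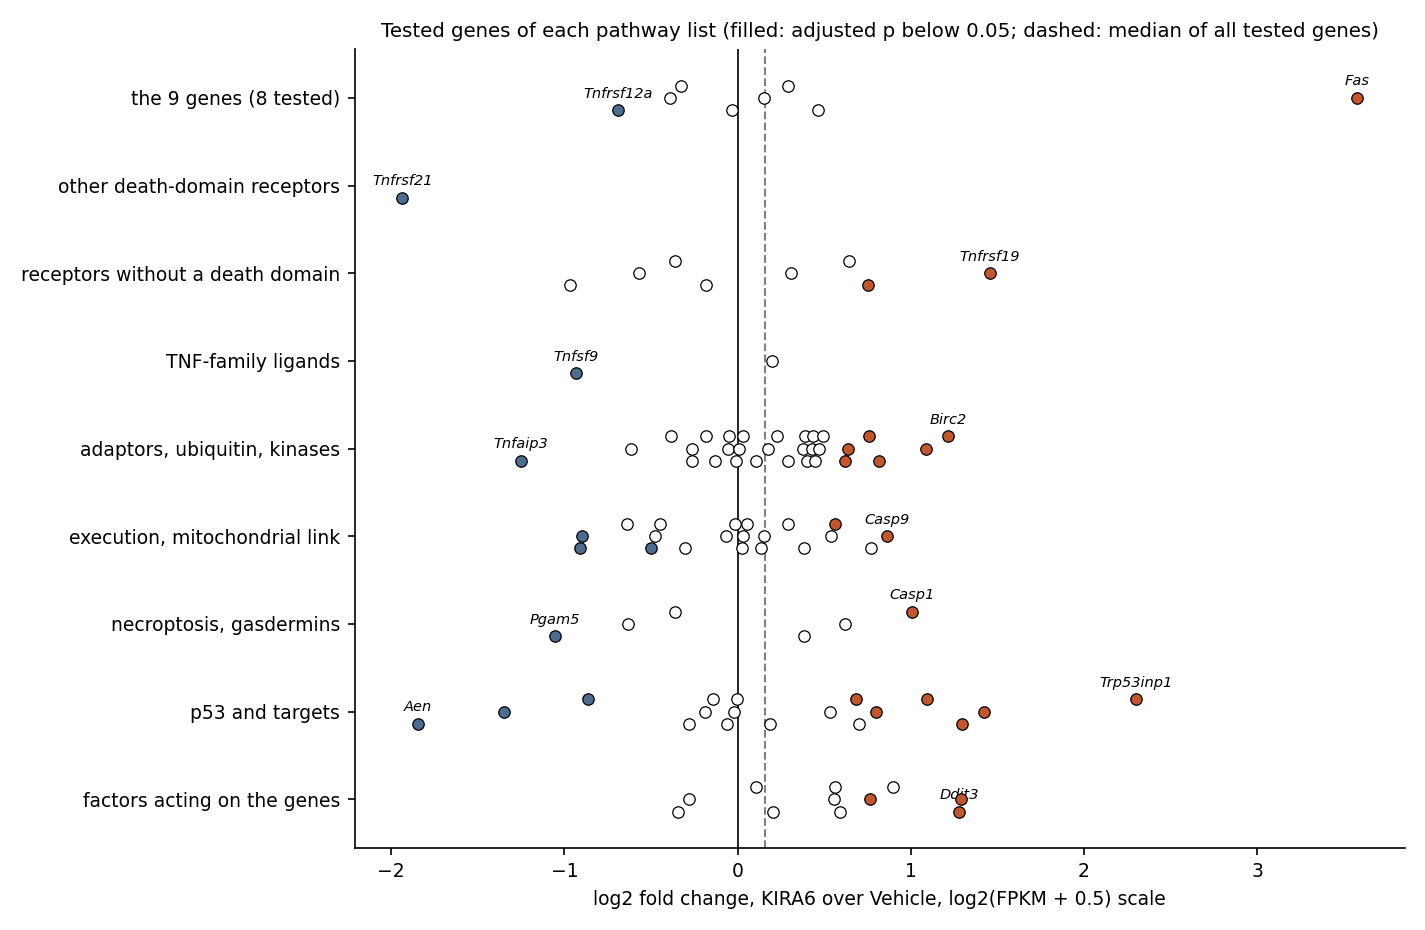
Log2 fold change of KIRA6 over Vehicle (horizontal axis) for each tested gene of the 9 genes and of 8 pathway lists, 1 point a gene, spread vertically for legibility. Filled points passed an adjusted p below 0.05 (orange higher, blue lower), and the dashed line is the median of all tested genes (0.16). Fas, at 3.58, is the highest point, and most lists hold points on both sides of 0.

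Downstream of caspase-8, genes of the execution phase and its mitochondrial link went both ways. Of 20 tested, 2 rose and 3 fell (25.0% called, against 23.6% of all tested genes), with a median of 0.03 that turned to −0.15 under median-ratio scaling. The median of all tested genes moved likewise with that scaling, from 0.16 to −0.0084. Bid, which caspase-8 cuts to engage mitochondria, had 21.4, 20.25 and 14.78 FPKM in Vehicle and 11.9, 9.14 and 8.47 FPKM in KIRA6, without overlap (log2 fold change −0.90 ± 0.20, SE, limma adjusted p = 0.0211). Parp1, for a DNA repair enzyme that is cut during apoptosis, also fell with a log2 fold change of −0.50. Casp9, the initiator of the mitochondrial route, rose from 1.61 ± 0.326 to 3.32 ± 0.14 FPKM (SD, n = 3 each), and Dffa, for the inhibitor of the caspase-activated DNase, rose by 0.56 on the log2 scale.

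The call for Bid ended when replicate 1 or 2 of Vehicle, or 2 or 3 of KIRA6, was left out (limma adjusted p up to 0.091). The call for Casp9 ended without KIRA6 replicate 2 (0.0524), that for Parp1 in 5 of the 6 fits with a single library left out (up to 0.122) and that for Dffa in all 6 (up to 0.141). Xiap, for an inhibitor of caspases, had 5.05 ± 1.12 and 6.22 ± 0.622 FPKM (SD, n = 3 each) and was not called (limma adjusted p = 0.313).

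Of the necroptosis and gasdermin genes, 6 of 9 were tested, 1 rose and 1 fell (33.3% called, against 23.6% of all tested genes). Casp1, the inflammatory caspase, rose from 0.637 ± 0.19 to 1.77 ± 0.226 FPKM (limma adjusted p = 0.00996) and kept its call except with quantile normalization. Pgam5, a mitochondrial phosphatase, fell from 82.6 ± 18.4 to 39.4 ± 8.78 FPKM (SD, n = 3 each, limma adjusted p = 0.0207). The call for Pgam5 ended when replicate 1 or 2 of Vehicle, or 2 or 3 of KIRA6, was left out (limma adjusted p up to 0.0908). Ripk3, the kinase that starts necroptosis, was at 0.02 FPKM in Vehicle replicate 3 and KIRA6 replicate 3 and at 0 in the other 4 libraries. Its substrate Mlkl had 38.6 ± 9.64 and 24.4 ± 4.51 FPKM and was not called (limma adjusted p = 0.0944). It was called lower in 6 of 18 alternatives, among them median-ratio scaling (log2 fold change −0.82, limma adjusted p = 0.0482).

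Fas and the TRAIL receptor gene are also known targets of p53. Whether p53 was present as a working protein in these cells, or bears on Fas here, was not tested. Of 21 genes for p53 and other targets, 18 were tested, 6 rose and 3 fell, so 9 of 18 were called, against 23.6% of all tested genes (15.6% higher and 7.98% lower). The median log2 fold change was 0.09, against 0.16 for all tested genes. Trp53inp1, a stress-induced regulator of p53 and autophagy, had 0.06, 0.1 and 0.07 FPKM in Vehicle and 2.44, 2.41 and 2.16 FPKM in KIRA6, and rose with a log2 fold change of 2.30 ± 0.14 (SE, limma adjusted p = 0.000478). Its Vehicle mean was under the 0.5 FPKM threshold, as was that of Sesn2 (0.413 FPKM), which is among the 6 that rose. Both were tested only through their KIRA6 levels and had to be higher there, so their direction was set by the filter. Bbc3, for the BH3-only protein PUMA, rose from 0.533 ± 0.186 to 2.01 ± 0.106 FPKM, and Sesn1 and Perp rose by 1.43 and 1.09 on the log2 scale. Aen, an apoptosis-associated nuclease, fell from 16.2 ± 2.99 to 4.18 ± 1.03 FPKM, Plk2, a kinase, from 20.6 ± 2.34 to 7.83 ± 1.4 FPKM (SD, n = 3 each), and Tigar, a regulator of glycolysis, by 0.87 on the log2 scale.

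These 7 calls held in all 18 alternatives. Cdkn1a, for the cyclin-dependent kinase inhibitor p21, and Sesn2 also rose, by 0.80 and 0.68 on the log2 scale. The call for Cdkn1a ended without KIRA6 replicate 2 (limma adjusted p = 0.0506) and with quantile normalization, and that for Sesn2 in 5 of the 6 fits that left out 1 library (up to 0.138) and with median-ratio scaling (0.0677). Trp53 itself had 7.67 ± 1.44 and 6.23 ± 1.03 FPKM (SD, n = 3 each, limma adjusted p = 0.329), and Mdm2, its ubiquitin ligase and target, had a log2 fold change of −0.06 (limma adjusted p = 0.854).

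Of 11 factors reported to act on transcripts of the 9 genes, all tested, 3 rose and 0 fell, with a median log2 fold change of 0.56. The share called was 27.3%, close to the 23.6% of all tested genes, so the count does not set this list apart. Beside Ddit3, Irf1 was among them, for a factor that carries interferon signals to promoters. Irf1 had 7.93, 8.48 and 8.11 FPKM in Vehicle and 22.52, 19.9 and 19.75 FPKM in KIRA6, and rose with a log2 fold change of 1.29 ± 0.12 (SE, limma adjusted p = 0.00138). The forkhead genes Foxo1 and Foxo3 had log2 fold changes of 0.56 and 0.90 (limma adjusted p = 0.368 and 0.0848) and the NF-κB genes Nfkb1 and Rela 0.20 and 0.59 (0.681 and 0.337). The list held 2 to 4 calls with single libraries left out and 8 when the 2 libraries that lay apart were both left out, all of them higher.

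**Figure D5:**
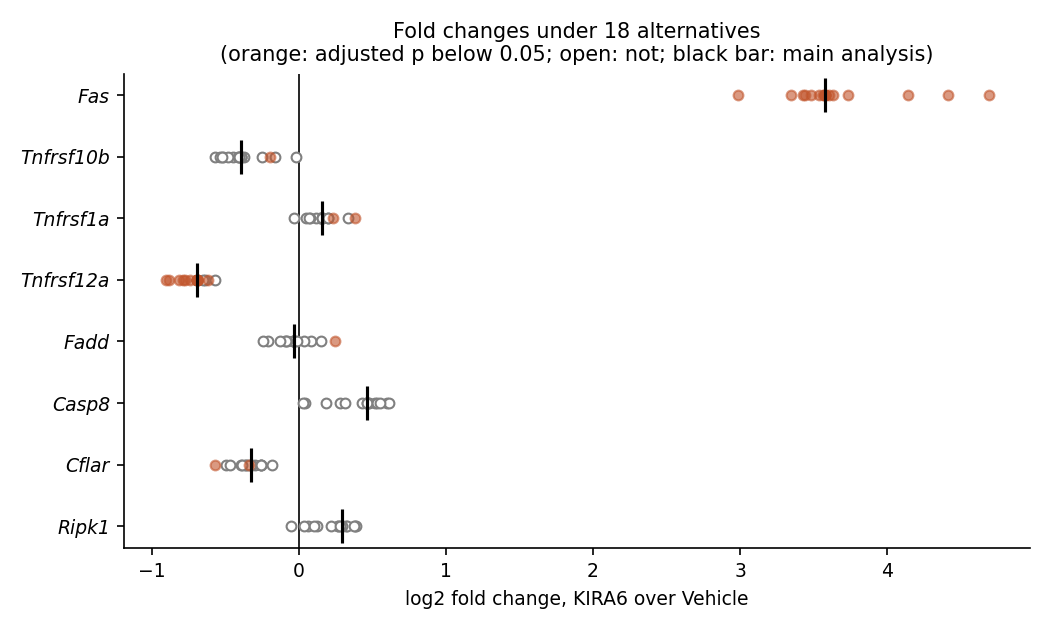
Log2 fold change of KIRA6 over Vehicle (horizontal axis) for the 8 tested genes under each of 18 alternative ways of processing (points) and as reported (black bars). Orange points passed an adjusted p below 0.05. Fas is called at every point, between 2.99 and 4.69, Tnfrsf12a keeps its sign and is called at 13 of 18, and the points of Tnfrsf1a, Fadd and Ripk1 fall on both sides of 0.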

How the data were processed

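Polyadenylated RNA of 4T1 cells was sequenced in 3 Vehicle and 3 KIRA6 libraries that kept strand, per the labels' protocols. Per the submitters' processing notes, GRCm39, HISAT2 2.2.1, cutadapt 1.9.1, DESeq2 1.34.0 and HTSeq 0.6.1 were used, with settings not given in the sources used here. FPKM with 2 decimals are the deposited values, beside each gene's exonic length. Depth was estimated from the steps between low values of short genes, of which 100% came within 0.1 of a whole fragment.

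limma 3.58.1 (R 4.3.3) was run on log2(FPKM + 0.5) with treatment as the only term, two-sided, and with trend and robust settings on in the empirical Bayes step. Each value carries the counting error of its fragments, so low genes are less precise. On simulated data for KIRA6 against Vehicle, 200 of 11778 genes were changed. The fit recovered 6%, 34%, 82% and 92% of 50 genes each at 1.5-, 2-, 4- and 8-fold. Of 112 calls, 5 were false. Most changes of 2-fold or less were thus missed in the simulation. In the measured data 23.6% of tested genes were called, and the adjusted threshold is less strict when more genes change. How many changes of each size were missed there was not tested. Ratios were compared by exact permutation with Python 3.11.15.

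The genes and the pathway lists were chosen with earlier results of these data known. Named are the 9 genes, 16 pathway genes whatever their values, up to 4 called genes per list with the smallest p, and the 3 nearest profiles of Fas, Tnfrsf10b and Tnfrsf12a. Others, such as those that complete a count, were chosen after their values were seen, as were the motifs. Alternatives changed the pseudocount, filter, scaling, empirical Bayes settings, library weights, unit and block, and left out libraries. A test of raw counts does not apply to FPKM. Results for some genes of the lists are counted but not reported here by name.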

Additional observations from a re-analysis of the deposited data

How the results depend on the processing

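Of the 8 tested genes, Fas kept its call and direction in all 18 alternatives, and Tnfrsf12a kept its direction in all 18 and its call in 13. The direction turned for Tnfrsf1a with median-ratio scaling (−0.029), for Ripk1 with array weights (−0.053), and for Fadd with array weights (0.244), with Vehicle replicate 3 (0.081), KIRA6 replicate 1 (0.036) or both (0.152) left out. With single libraries left out Fadd ran from −0.126 to 0.081. With array weights, 6 of the 9 genes, 81 pathway genes and 10003 of all tested genes were called. That estimate stopped before it converged and gave Vehicle replicate 2 a weight of 34.1 and Vehicle replicate 3 one of 0.104. It is counted among the 18 alternatives, where it called both Fas and Tnfrsf12a. Without Vehicle replicate 3 and KIRA6 replicate 1 together, 59 pathway genes in place of 30 and 6610 genes in place of 2783 were called. Since these 2 were the libraries far from their groups, leaving them out narrows the spread by construction. With single libraries left out, 1 to 2 of the 9 genes, 15 to 33 pathway genes and 1211 to 3392 of all genes were called, and the ratio of Cflar to Casp8 differed by −1.088 to −0.472 (log2).

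Whether the replicate numbers pair the libraries could not be settled. With 3 libraries a group, Vehicle replicate 3 and KIRA6 replicate 1, far from their groups, can set the correlations. Deviations from the group means correlated at 0.762, −0.469 and 0.738 for replicates 1, 2 and 3. Vehicle replicates 1 and 3 correlated best with the KIRA6 replicate of the same number, and Vehicle replicate 2 with KIRA6 replicate 1 (0.713). With the replicate block 4423 genes were called in place of 2783, and 42 pathway genes in place of 30. The block left the calls of the 8 tested genes as they were, and the ratio of Cflar to Casp8 had an exact p of 0.25 with it, the smallest that 3 pairs can give. Depth limits Tnfsf10 (4 fragments in Vehicle) and the Vehicle level of Fas (12 to 17 fragments).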
